A study of Mus musculus with 6 samples.

Results

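The genes described here are a pair of retinoid receptors, Rarg and Rxra, and 3 regulators of lineage choice, Sox7, Sox3 and Pax6. Each region was taken whose row in the authors' tables of neighboring genes names one of them. That gave 8 of 1542 regions in all: 2 of 265 Oct4 regions, 6 of 1253 Spt16 regions and 0 of 24 Jmjd1c regions. The genes were chosen by the presence of called regions beside them, which rests on the ChIP and input reads and the deposited distances. Those values are therefore a description and carry no test. Occupancy was measured by ChIP-seq, in which DNA bound by a protein is pulled down with an antibody and sequenced, in C57BL/6 mouse embryonic stem cells carrying a doxycycline-inducible (tet-ON) Oct4 gene. All cells had been differentiated with retinoic acid, and the 4 libraries used came from cells given doxycycline for 10 h: Oct4, Spt16 and Jmjd1c ChIP and input chromatin, 1 library each. The Oct4 and input libraries at 0 h were not analysed here. The length of the retinoic acid treatment and the number of cell clones are not given in the sources used here. ChIP-seq reads no RNA, so the cell type could not be checked against marker expression, and no value below says whether a gene was transcribed. With 1 library per antibody there is no replicate check, and each interval covers counting error only.

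Retinoic acid acts through nuclear receptors of the RAR and RXR families, which bind DNA as heterodimers and switch between co-repressors and co-activators when the ligand binds. In embryonic stem cells retinoic acid drives exit from pluripotency, and the Sox and Pax families supply many of the transcription factors that then set lineage. Oct4, made from Pou5f1, is the POU factor of pluripotency that was switched back on in these cells. Spt16 belongs to FACT, which loosens and reassembles nucleosomes, and Jmjd1c is a Jumonji protein related to histone demethylases.

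Of the 5 genes, 2 (Rarg and Sox7) had an Oct4 region within 50 kb of the gene start, where 1.42% of 21900 protein-coding genes had one. All 5 had a Spt16 region within 50 kb, against 7.15% of protein-coding genes, and none had a Jmjd1c region, against 0.132%. The membership rule fixed these counts, so nothing is read from them. No region lay within 5 kb of a member's deposited start. The distances ran from 5574 bp at Sox3 to 22392 bp at Pax6, which puts each region outside the promoter next to that start (the map of regions along the genes).

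**Figure D1:**
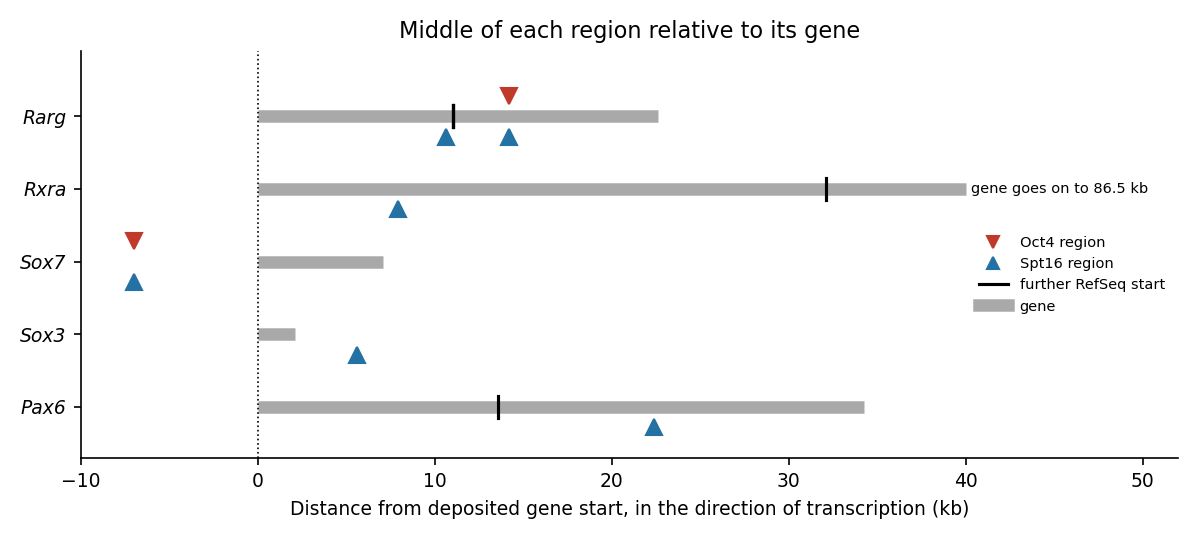
Middle of each of the 8 regions relative to the deposited start of its gene, in kb along the direction of transcription; gray bars are genes, red and blue triangles Oct4 and Spt16 regions, black ticks further starts in RefSeq (distances taken within GRCm38.p6). The Sox7 regions lie upstream, the Sox3 region past the gene's end, and the others inside their genes.

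Rarg is known to be transcribed from more than 1 promoter, and the RefSeq table (GRCm38.p6) holds a start 11022 bp inside the gene, measured from its first start. Its promoter window is shown because a Spt16 region lay beside it. In the deposited mm9 coordinates the Spt16 region spanned 10551 to 10744 bp from the gene start. The second RefSeq window spans 10772 to 11071 bp from the first RefSeq start. Taken each within its own build, these stretches are 28 bp apart, and the middle of the region lies 374 bp before the second start. No coordinate was converted. The gene was 22579 bp long in the deposited table and 22585 bp in RefSeq, so the distances carry an uncertainty of about 6 bp if no other change lies between the builds. The Oct4 region and the other Spt16 region lay 3151 and 3142 bp past that start. The windows of both starts, from 250 bases before to 50 after, were taken from RefSeq on the minus strand and are given 5′ to 3′. Capitals mark matches on either strand to AGGTCA, the half-site bound by retinoid receptors, in the first window. In the second they mark TGCAAA, a stretch of the octamer ATGCAAAT bound by Oct4.
Rarg first start, chr15:102257473-102257772: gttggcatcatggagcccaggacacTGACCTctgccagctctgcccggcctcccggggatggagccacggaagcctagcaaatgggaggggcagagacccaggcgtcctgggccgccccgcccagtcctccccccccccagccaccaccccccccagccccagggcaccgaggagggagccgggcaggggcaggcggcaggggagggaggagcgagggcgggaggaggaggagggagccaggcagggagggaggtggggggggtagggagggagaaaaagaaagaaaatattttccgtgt
Rarg second start, chr15:102246451-102246750: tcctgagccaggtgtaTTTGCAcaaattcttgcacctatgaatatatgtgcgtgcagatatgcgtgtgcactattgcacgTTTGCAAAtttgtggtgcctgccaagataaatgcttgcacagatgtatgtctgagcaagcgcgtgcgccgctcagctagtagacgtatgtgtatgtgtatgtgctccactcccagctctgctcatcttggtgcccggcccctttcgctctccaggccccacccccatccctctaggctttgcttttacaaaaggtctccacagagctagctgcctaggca

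The window at the second start held 3 matches to TGCAAA on either strand, a pair of which overlapped. That motif was added after this sequence had been read, and 15.5% of 32851 promoter windows of the same length hold it. The full octamer, held by 1.74% of windows, was not found in either Rarg window, nor were ATGCAA (10.7%), ACAAAG (18.7%) or ACAATG (12.6%), the last pair being cores that Sox proteins bind. The first window held 1 AGGTCA (16.3% of windows) and the second none. Its GC content was 70%, against 51.7% at the second start. No window of these genes held that half-site repeated in the same direction with a gap of 5 or 2 bases. For each gap, 0.00913% of windows hold it. Only these exact letters were searched, and so few windows hold them that no lack of retinoid receptor sites is read from this. RefSeq windows were matched for 3 of the 5 genes, Rarg, Rxra and Pax6, with 2 starts each. At Rxra, the first start held ATGCAA once and TGCAAA at 2 positions, and the second start TGCAAA once and AGGTCA at 2 positions. At Pax6, the second start held ATGCAA and ACAAAG once each and the first start held none of the motifs. The Rxra and Pax6 regions lay 24167 bp before and 8825 bp past the second start of their genes, so these windows were not covered by a region. At Pax6 the gene is 4749 bp shorter in RefSeq than in the deposited table, so that distance depends on which start is used. A match is a run of letters, not a shown binding site.

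Rarg, which encodes retinoic acid receptor gamma, was the only member with more than 1 Spt16 region. Of the 3203 gene identifiers in the Spt16 table, 18.1% were named by several regions. The Oct4 region (ENSMUSG00000001288, chromosome 15, 102073625 to 102073924, mm9) had its middle 14173 bp inside the gene, counted from the start, and 8406 bp before its end. Its best window held 11 reads on the plus and 12 on the minus strand, 23 in all, or 1.48 RPM (reads scaled to a library total of 1 M; 95% exact Poisson interval 0.938 to 2.22). The input held 2 reads there, so ChIP was 10.8-fold over input (95% exact binomial counting interval 2.67 to 94.5). The interval is wide because so few input reads were present.

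A Spt16 region lay at the same place in Rarg (102073684 to 102073883), its middle 9 bp from that of the Oct4 region and all of its 199 bp inside it. It held 17 plus-strand and 19 minus-strand reads, 36 in all (0.982 RPM, 0.688 to 1.36), against 1 input read, a 14.3-fold excess (2.41 to 581). The Spt16 region beside the second start (102077203 to 102077396) held 13 and 16 reads, 29 in all (0.791 RPM, 0.53 to 1.14), and no input read. Against a floor of 3 input reads (0.206 RPM) this was 3.85-fold, with the ChIP count taken as exact. With no input read, the fold over input has only a lower counting limit (exact binomial), here 2.93. The 2 Spt16 regions of Rarg lay 3516 bp apart, and their RPM intervals overlapped, so no difference in level is read from them. Each was called from 1 window, as were 15.1% of Spt16 regions. By distance, Rarg was the nearest gene to the region beside its second start only. At the shared place the nearest gene start was that of Itgb7, an integrin beta subunit of lymphocytes, 11409 bp from the Oct4 middle, which lay upstream of Itgb7. The same rows named Gm9918, Mfsd5 and Zfp740, and the row of the region beside the second start also named Espl1, which encodes separase, at 49424 bp.

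Rxra, which encodes retinoid X receptor alpha, the common partner of the RARs, had a Spt16 region inside the gene (ENSMUSG00000015846, chromosome 2, 27539748 to 27540019). It lay 7924 bp past the start of a gene of 86517 bp. No other gene was named in its row. It held 19 plus-strand and 13 minus-strand Spt16 reads, 32 in all (0.873 RPM, 0.597 to 1.23), and no input read. The fold over the floor was 4.24 (lower counting limit 3.26). The listed Oct4 region closest to the Rxra region was 187.9 kb away, beside Wdr5 and Brd3.

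Sox7 encodes a SoxF factor of extraembryonic endoderm and vascular cells. Its regions were the strongest of the 8 by place in their lists, and the only ones upstream of the named gene. The Oct4 region (ENSMUSG00000063060, chromosome 14, 64555330 to 64555683) had its middle 7004 bp before the gene start. It held 11 and 10 reads by strand, 21 in all (1.35 RPM, 0.836 to 2.07), and no input read. The Oct4 fold over the floor was 6.57 (lower counting limit 4.89). The Spt16 region (64555220 to 64555725) covered all of the Oct4 region, with middles 34 bp apart. It held 25 reads on each strand, 50 in all (1.36 RPM, 1.01 to 1.8), and no input read. Its fold over the floor was 6.63 (lower counting limit 5.20). It was built from 26 windows, where the median Spt16 region had 5. The other genes of both rows, 4930578I06Rik and Pinx1, started more than 50 kb away (51110 and 76358 bp from the Oct4 middle).

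Sox3, an X-linked SoxB1 gene of neural progenitors, had a Spt16 region past its end (ENSMUSG00000045179, chromosome X, 58140866 to 58141195). The middle lay 5574 bp from the start of this 2060 bp gene, and the near edge 3349 bp beyond the gene. It held 19 and 18 reads by strand, 37 in all (1.01 RPM, 0.71 to 1.39), and no input read. The fold over the floor was 4.91 (lower counting limit 3.80). The predicted gene Gm14662 started at nearly the same distance, 5797 bp, and Gm7076 at 19311 bp. The Sox3 region was also the most isolated of the 8, with no other listed region within 1 Mb. The nearest one was a Spt16 region 2737 kb away.

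Pax6, a paired-box and homeobox gene of the eye, brain and pancreas, had the weakest region (ENSMUSG00000027168, chromosome 2, 105531348 to 105531540). Its middle lay 22392 bp inside the gene and 11872 bp before its end. It held 13 Spt16 reads on each strand, 26 in all (0.709 RPM, 0.463 to 1.04), and no input read. The fold over the floor was 3.45 (lower counting limit 2.61). No Spt16 region had fewer reads, and 88 of the 1253 regions shared its authors' score of 37.8, the lowest in the list. Its Q value score was 13.02, where the authors kept regions from 13. The starts of Gm13954 (17711 bp) and of the antisense gene Pax6os1 (20958 bp) were closer than that of Pax6, and Elp4 was named at 213276 bp.

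**Figure D2:**
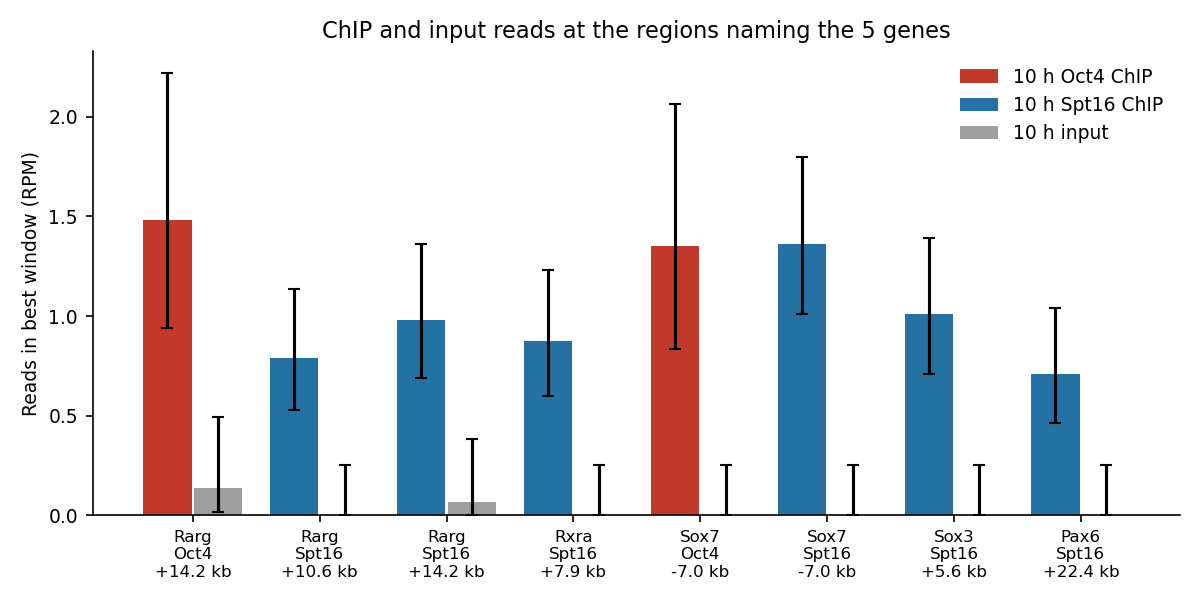
Reads in the best window of each region, in RPM, for the ChIP library (red Oct4, blue Spt16) and the 10 h input (gray), with exact 95% Poisson intervals; 1 library each. Spt16 runs from 0.709 RPM at Pax6 to 1.36 RPM at Sox7, and 6 of the 8 regions have no input read.

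Among the Spt16 regions the order of levels was Sox7, Sox3, the shared Rarg region, Rxra, the other Rarg region and Pax6, with 50, 37, 36, 32, 29 and 26 reads. Each neighbor in this order overlapped the next within its counting interval, so no step between neighbors is read as a difference. The intervals of Sox7 (1.01 to 1.8 RPM) and Pax6 (0.463 to 1.04 RPM) also overlapped, narrowly. Overlap of separate intervals does not show equal levels, and no ratio between these regions was computed. The median Spt16 region held 37 reads, as many as Sox3. By the authors' score, 85.4% of Spt16 regions scored lower than Sox7, 64.0% lower than Sox3, 43.1% lower than Rxra and 26.1% and 25.1% lower than the Rarg pair. In the Oct4 list, 81.1% of regions scored lower than Sox7 and 49.1% lower than Rarg. So 2 of the 6 Spt16 regions, Sox7 and Sox3, were in the higher-scoring 50% of their list. The Rarg Oct4 region had more reads than that of Sox7 but a lower score, with 2 input reads against 0.

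**Figure D3:**
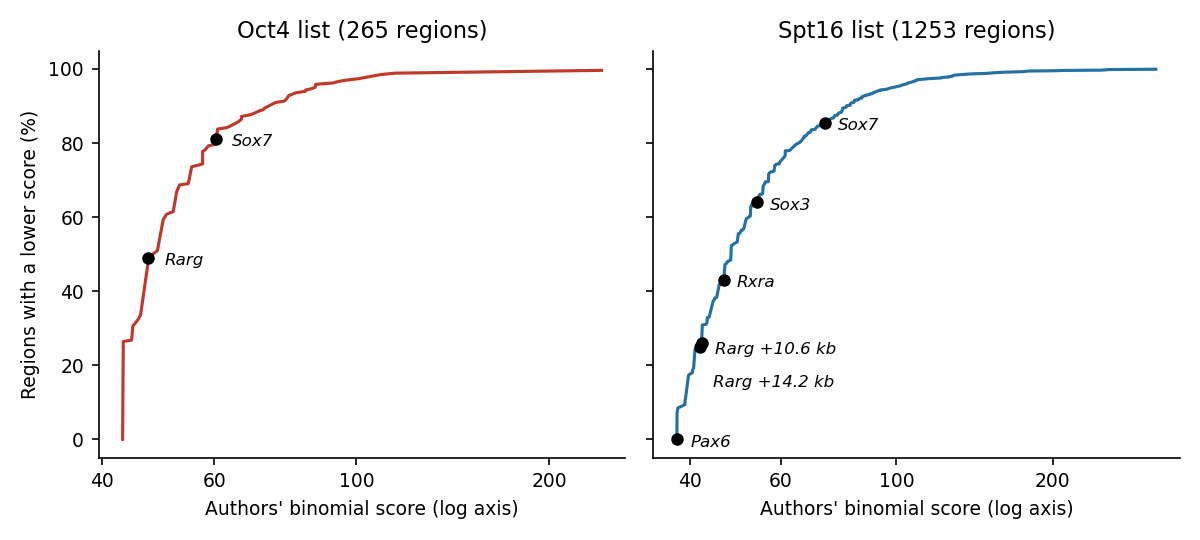
Share of regions in each list with a lower authors' score (vertical axis, %) by score (horizontal, log axis), with the regions of the 5 genes as black points; scores compare regions within a list only. Sox7 lies above 81.1% of Oct4 and 85.4% of Spt16 regions, and Pax6 at the foot of the Spt16 list.

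Both Oct4 regions overlapped a Spt16 region, as 63.4% of all Oct4 regions did, and 2 of the 6 Spt16 regions overlapped an Oct4 region, as 13.4% of all Spt16 regions did. None overlapped a Jmjd1c region, as 4.91% of all Oct4 and 1.12% of all Spt16 regions did. At Sox7 the ratio of Spt16 to Oct4 RPM was 1.01 (95% exact binomial counting interval 0.595 to 1.77). At Rarg it was 0.663 (0.383 to 1.17). Both intervals include equal levels, and that of Rarg reaches just past the median ratio of 1.14 over the 168 shared regions. At 8 of the 168 the ratio was lower than at Rarg (4.76%), and at 57 lower than at Sox7 (33.9%). Per bp of the best window, the ratio was 0.670 at Rarg and 0.958 at Sox7. Dividing the same best-window reads by the width of the region gave 0.997 and 0.705. That change at Rarg comes from the region widths (299 bp for Oct4, 199 bp for Spt16), since reads over the whole region were not used here.

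**Figure D4:**
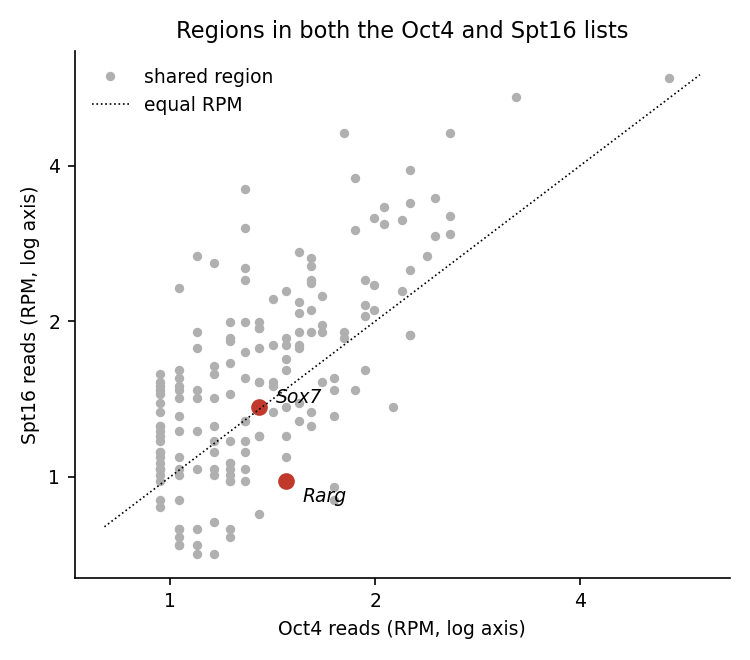
Oct4 against Spt16 reads in RPM (both axes log) at the 168 regions in both lists, 1 point a region, with the line of equal RPM dotted. Sox7 lies close to the line at 1.35 and 1.36 RPM, and Rarg below it at 1.48 and 0.982 RPM.

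The Oct4 reads at the Spt16 regions of Rxra, Sox3 and Pax6 are not in the tables used here, so absence from the Oct4 list gives no level. The Oct4 library had 15.5 M reads and the Spt16 library 36.7 M. With no input read, the lowest Oct4 count in the list was 15. Had Oct4 been at the RPM of Spt16, its library would have held 11.0 reads at Pax6, 12.3 at the Rarg region beside the second start, 13.6 at Rxra and 15.7 at Sox3. Only Sox3 would then have passed the lowest Oct4 score (45.1 against 43.1). With Spt16 reads scaled to the Oct4 total, 2 of the 6 Spt16 regions, those of Sox7 and Sox3, would still have been listed. Over the whole list 39.5% would, and 32.8% of Spt16 regions without an Oct4 region. The shared Rarg region fell out too (34.6), although Oct4 itself was listed there. For Jmjd1c, with 26.7 M reads, the same RPM as Spt16 would have passed at Sox7 (36.5 reads), Sox3 (27.0) and Rxra (23.3), where the lowest listed count without input was 23. It would not have passed at Pax6 or at either Rarg region.

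The regions most like each member's were sought among those of the same list and the same overlap between lists that had at least 1 gene named and no member, by distance in log2(RPM + 0.1) of ChIP and input. With so few reads most matches were exact ties. Pax6 shared its 26 and 0 reads with 81 of 969 such Spt16 regions outside the other lists, the first by rank lying beside Gm16786, Atoh7 and Cdk1. Rxra tied with 45, first those beside Snora33, a U6 gene and Zfp280b. The Rarg region beside the second start tied with 48, first those beside a U1 gene, Cradd and a SNORA17 gene. Sox3 tied with 11, first those beside Fbrsl1, Gm15728 and Gm17247. Among 135 such Oct4 regions shared with Spt16 alone, Rarg tied with 4, which included regions beside Fat1, AC154683.1 and B930094E09Rik, and Sox7 with 5, which included those beside A730056A06Rik, A730045E13Rik and Slc10a7. For Spt16 the closest to Sox7 were beside Immp2l (51 reads), Gm10132 (49) and Ebf1 (52), and the closest to the shared Rarg region beside Zfc3h1 (38), Dennd2c (39) and Fat1 (40). Regions beside Fat1 were named for both proteins by read counts alone, for Oct4 as 1 of 4 ties, and nothing further is read from this.

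Other genes of the retinoid pathway were counted within 50 kb of a region. Of 6 receptors, 1 had an Oct4 region and 2 a Spt16 region, in both cases the members alone, and Rara, Rarb, Rxrb and Rxrg had none. Of 13 genes of retinoid transport and metabolism, none had an Oct4 region and 2 had a Spt16 region. Both encode enzymes of retinoic acid synthesis, as do Aldh1a1 and Aldh1a3, which had no region. Aldh1a2, the retinaldehyde dehydrogenase of the early embryo, had its region 1539 bp inside the gene (33 reads against 0). This was 4.38-fold over the floor (lower counting limit 3.36). Rdh10, a retinol dehydrogenase, had one 24394 bp inside (45 against 1, 17.9-fold, 3.05 to 723). Of 10 co-regulators, Hdac3, a deacetylase of co-repressor complexes, had an Oct4 region 22171 bp away, past its end (17 against 0). Its fold over the floor was 5.32 (lower counting limit 3.87). Ncor1, the co-repressor itself, had a Spt16 region 36285 bp upstream (28 against 0, 3.71-fold over the floor, lower counting limit 2.83). Of 15 retinoic acid target genes, only Tgm2, a transglutaminase, had a Spt16 region, and none had an Oct4 region. The Tgm2 region lay 31343 bp upstream (27 against 0, 3.58-fold over the floor, lower counting limit 2.72). In all, 2 of 44 retinoid genes (4.55%) had an Oct4 region and 6 (13.6%) a Spt16 region, where all protein-coding genes gave 1.42% and 7.15%. These counts include Rarg and Rxra, which were chosen for their regions. Without them, 1 of 42 (2.38%) had an Oct4 region and 4 (9.52%) a Spt16 region, near the background. None had a Jmjd1c region.

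Of the 20 Sox genes, 8 had a Spt16 region within 50 kb and 1, Sox7, an Oct4 region. Without the members Sox7 and Sox3, the counts were 6 of 18 for Spt16 (33.3%, against 7.15% of protein-coding genes) and 0 of 18 for Oct4 (against 1.42%). Sox2, the SoxB1 partner of Oct4, had the strongest, 4050 bp from its start and past its end (89 reads against 2, 17.7-fold, 4.76 to 148). Sox3 and Sox2 thus each had a Spt16 region past the end of the gene, and neither had a listed Oct4 region within 50 kb. The same held for Sox15 and Sox30, which are not SoxB1 genes, while the SoxB1 gene Sox1 had no region. The authors removed 10 Oct4 regions found in uninduced cells, and where these lay was not examined here. Absence from the Oct4 list therefore gives no level. Sox13, a SoxD gene, had a region 26652 bp inside (47 against 1, 18.7-fold, 3.2 to 754). Sox10, a neural crest factor, had one 35263 bp upstream (54 against 2, 10.7-fold, 2.83 to 91.0). Sox11, a SoxC gene of neurons, had one 46902 bp upstream (42 against 0, 5.57-fold over the floor, lower counting limit 4.33). Sox15 had 2, at 10593 and 48980 bp and past its end (31 and 28 reads against 0). Sox30, a germ cell factor, had one at 40209 bp, also past its end (30 against 0). The other SoxF genes, Sox17 and Sox18, had none. Of 9 Pax genes, Pax6 alone had a Spt16 region and none an Oct4 region.

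The list of endoderm and mesoderm regulators had no gene with a region within 50 kb in any table (0 of 18 in each), Gata4, Gata6, Foxa2 and Eomes among them. Sox7, which had regions, was counted in the Sox family and not in this list. At background shares of 1.42%, 7.15% and 0.132%, a count of 0 among so few genes is not distinguishable from that of genes at large. Of 20 neural regulators, 5 had a Spt16 region and 1, En2, an Oct4 region as well. En2, a homeobox gene of the midbrain and hindbrain, had both regions over 44 kb past its start (Oct4 20 reads against 0, Spt16 132 against 1). The others were Nkx2-1 (16336 bp, 33 reads), Otx2 (33517 bp, 27), Zic2 (41207 bp, 32) and En1 (41685 bp, 39 against 2). The lineage lists together gave 2 of 67 genes (2.99%) for Oct4, 14 (20.9%) for Spt16 and 0 for Jmjd1c. Without Sox7, Sox3 and Pax6, the counts were 1 of 64 for Oct4 (1.56%, near the background) and 11 of 64 for Spt16 (17.2%, against 7.15%). The lists were drawn up with earlier results of these data known, so these shares are set beside the background as a description. Within 20 kb the counts were lower, with 3 retinoid and 5 lineage genes for Spt16 and 1 of each for Oct4, members included. For Spt16 these were Rarg, Rxra and Aldh1a2, and Sox2, Sox3, Sox7, Sox15 and Nkx2-1. For Oct4 they were Rarg and Sox7, both members. The shares of all protein-coding genes fell to 3.37% for Spt16 and 0.63% for Oct4. Of the genes with a Spt16 region within 20 kb, only Aldh1a2, Sox2, Sox15 and Nkx2-1 were not members. Most of the 11 lineage genes that were not members thus had their closest Spt16 region 20 to 50 kb away. With so few genes, no difference from the fall of the background share is read. Within 5 kb the counts came to 1 gene each for Spt16, Aldh1a2 and Sox2, and 0 for Oct4, against 1.3% and 0.192% of all protein-coding genes.

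**Figure D5:**
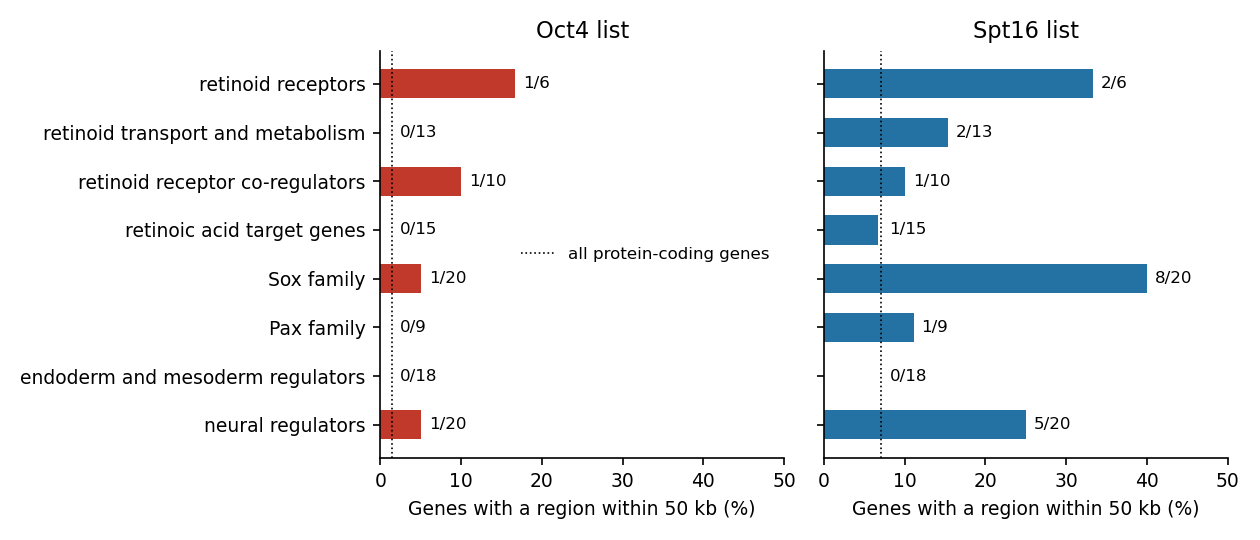
Share of the genes of each list with an Oct4 (left) or Spt16 (right) region within 50 kb, in %, with counts beside the bars; the dotted line is the share of all 21900 protein-coding genes (1.42% and 7.15%). With the 5 genes chosen for their regions included, the Sox family, which holds Sox7, has 8 of 20 genes in the Spt16 list. The list of endoderm and mesoderm regulators has 0 of 18 in both.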

How the data were processed

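Per the labels' protocols, formaldehyde-fixed chromatin was sonicated and precipitated with antibodies to Oct4, Spt16 or Jmjd1c. Per the submitters' processing notes, CASAVA 1.4 and Bowtie were used with the mm9 build. Which program called the regions is not stated in the sources used here. Per the file headers, the authors called regions against the 10 h input, kept a Q value score of at least 13 and a log2 ratio of at least 1, and removed 10 Oct4 regions found in uninduced cells. The deposited counts are reads per strand in each region's best window and were summed over strands. The deposited log2 ratio adds 1 read to scaled ChIP and to input. The score deposited by the authors is 10 times the negative log10 of a binomial p-value. Both could be recomputed from the counts. Library totals, per the file headers, were 15.5 M (Oct4), 36.7 M (Spt16), 26.7 M (Jmjd1c) and 14.6 M reads (input); intervals and the floor of 3 input reads cover counting error only, since the reads carry no molecular identifiers and may not be independent.

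Overlap meant at least 1 bp. Distances are the deposited ones, from the middle of a region to the gene start, signed here by strand; "inside" refers to the deposited gene limits, and exons and introns were not used here. Symbols were matched to RefSeq genes (GRCm38.p6, names only), and all 44 retinoid and 67 lineage genes matched. Promoter sequences are RefSeq's on GRCm38.p6. The 5 genes and the lists were chosen with earlier results of these data known. Genes named were the 5, others in their rows, list genes with a region and the 3 nearest regions by reads, except 1 list gene that is not reported here; the few named as lacking a region were chosen after their values were seen. No test was run. Alternatives were the higher-scoring 50% of each list, other distances, other overlap rules, scaled reads, the authors' ratio and reads per bp. The code was tested on simulated data. Python 3.11.15, numpy 2.4.6, scipy 1.17.1 and matplotlib 3.10.9 were used.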

Additional observations from a re-analysis of the deposited data

How the results depend on the processing

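Of 56 alternative values, 17 concern counts that were 0 and could hardly move, and 6 are folds with no upper limit. Of the other 33, 19 stayed within the main value's interval or within 1.5 times its count, and 14 did not. Regions naming the 5 genes fell from 6 to 2 for Spt16 in the higher-scoring 50% of the list and also with reads scaled to the Oct4 total. Within 5 kb they came to 0 for Spt16 and 0 for Oct4, and the 50 kb and 20 kb limits left the counts within 1.5 times. Of retinoid genes, the Oct4 count of 2 became 1 within 20 kb and 0 within 5 kb, and the Spt16 count of 6 became 3, 1 and, in the higher-scoring 50%, 2. Of lineage genes, the Oct4 count of 2 became 1 and 0, and the Spt16 count of 14 became 5, 1 and, in the higher-scoring 50%, 8. Fewer regions or a shorter distance give lower counts by construction. Overlaps did not change with a 50% minimum or with middles within 100 bp. With 1 read added to scaled ChIP and to input, the 6 folds over the floor became 3.15 to 3.29 times as large. For Spt16 they ran from 11.3 at Pax6 to 20.9 at Sox7. The Rarg folds fell to 7.53 for Oct4 and, at the shared Spt16 region, to 7.66, within their wide intervals. No replicate could be left out, and no paired analysis was possible because each group held 1 library.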

Other observations

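Some list genes had a region named just past the 50 kb limit or deep inside a long gene. Pax2, a kidney and midbrain factor, had a Spt16 region 52922 bp inside (33 reads against 1 input read). Ncoa1, a nuclear receptor co-activator, had one 188594 bp inside (39 against 0).

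Other listed regions near the members were as follows. Besides the regions at Rarg itself, the closest Oct4 region to the Rarg one lay 323.1 kb away, in a row naming Atf7, Npff, Tarbp2 and Map3k12 (15 reads against 0). The Spt16 region closest to that of Sox7 lay 436.1 kb away, in a row naming Tdh and Mtmr9 (39 against 1). The Spt16 region closest to that of Pax6 lay 321.0 kb away, beside Rcn1 (90 against 2), more than 3 times the reads at Pax6. No Jmjd1c region lay within 1 Mb of a member's region.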
